A study of Mus musculus with 8 samples.

Results

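Neutrophil granule protein genes were followed through sorted reporter-positive cells of adipose tissue (AT) and muscle. The set holds the 10 genes S100a8, S100a9, Ngp, Camp, Ltf, Lcn2, Mmp8, Mmp9, Retnlg and Elane, taken by gene name from the 54532 genes of the count table, and all 10 were found. The data are RNAseq read counts in 8 libraries of mG+ (GFP+) cells, which were FACS-sorted from subcutaneous AT (SAT), visceral AT (VAT) and gastrocnemius muscle (M) of female mice aged 8 months. WT mice were Tie2e-cre; TERT+/+; mTmG and EC-Tert-KO mice were Tie2e-cre; TERTfl/fl; mTmG, so that both genotypes carried the Cre driver and the mTmG reporter, in which recombined cells turn green. SAT came from mice on high fat diet (HFD) and on chow, VAT and muscle from mice on chow, and each of these 4 sources had 1 WT and 1 KO library. Tie2 is a receptor of endothelial cells (EC), and Tie2-driven Cre is known also to recombine in blood cells, so the sort takes cells by reporter and not by type. The sources used here do not say whether a library pooled several mice or whether 1 mouse gave several tissues.

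Neutrophils fill their granules in succession as they mature in bone marrow. Promyelocytes make the azurophil granules, which hold neutrophil elastase (Elane) and myeloperoxidase. Myelocytes and metamyelocytes then make the specific granules, which hold lactoferrin (Ltf), the cathelicidin peptide (Camp), the cystatin-like neutrophilic granule protein (Ngp), the siderophore-binding protein lipocalin 2 (Lcn2) and the collagenase Mmp8. Gelatinase (Mmp9) enters granules later, and Retnlg, a resistin-like secreted protein, is transcribed in mature mouse neutrophils. S100a8 and S100a9 together form calprotectin, a metal-binding protein of the neutrophil cytosol. Transcription of the early granule genes ceases before the cell leaves the marrow, whereas Mmp9 and Lcn2 are also transcribed by other cells, macrophages and epithelia among them.

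By the GRCm38 coordinates in the deposited table, 4 of the genes lie on chromosome 9: Camp (109847379 to 109849617), Ngp (110419747 to 110423012), Ltf (111019271 to 111042767) and Mmp8 (7558456 to 7568485). Camp lies 570 kb from Ngp and Ngp lies 596 kb from Ltf. S100a8 (90668978 to 90670035) and S100a9 (90692632 to 90695721) are 22.6 kb apart on chromosome 3. Lcn2 (32384633 to 32388252) and Mmp9 (164940780 to 164955850) are on chromosome 2, Retnlg (48872621 to 48874496) on chromosome 16 and Elane (79886247 to 79888215) on chromosome 10. All 10 are protein-coding genes at the same position in GENCODE M21, and no other gene of the table overlaps them.

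RefSeq promoters (GRCm38.p6) were found for 9 of the 10 genes. Because all 10 genes stood highest in muscle, the 250 bases before the RefSeq start were searched on both strands for the letters of 3 motifs of factors that act in granulocyte development. TTGCNNAA, or TTNNGCAA on the other strand, a motif of the C/EBP factors, occurred in 6 of 9 windows, against 9.56% of the 32851 promoters in the table. GAGGAA, or TTCCTC on the other strand, a core bound by Spi1 (PU.1), occurred in 5 of 9 against 23.3%, and TGTGGT, or ACCACA on the other strand, a core bound by RUNX factors, in 1 of 9 against 14.0%. No match overlapped another. These are matches of letters in a window and not measured binding. Shown are Ngp and Ltf, specific granule genes with a large difference between muscle and VAT, Elane of the azurophil granules, S100a9, the member with the highest level per length, and Retnlg, which was high in VAT too. Each is printed 5′ to 3′ on its own strand, up to the gene's start in the deposited table or the RefSeq start, whichever comes first, with the matches in capitals. The windows are chr9:110419558-110419746 (plus strand) for Ngp, chr9:111019042-111019270 (plus) for Ltf, chr10:79886062-79886246 (plus) for Elane, chr3:90695722-90695971 (minus) for S100a9 and chr16:48872358-48872607 (plus) for Retnlg.
Ngp: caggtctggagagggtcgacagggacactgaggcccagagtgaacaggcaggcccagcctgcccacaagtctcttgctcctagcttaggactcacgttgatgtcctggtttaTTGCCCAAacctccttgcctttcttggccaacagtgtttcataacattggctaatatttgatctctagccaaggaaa
Ltf: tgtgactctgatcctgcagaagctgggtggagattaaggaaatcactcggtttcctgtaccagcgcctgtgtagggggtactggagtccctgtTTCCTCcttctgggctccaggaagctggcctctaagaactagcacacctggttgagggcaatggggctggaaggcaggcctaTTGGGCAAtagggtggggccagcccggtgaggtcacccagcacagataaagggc
Elane: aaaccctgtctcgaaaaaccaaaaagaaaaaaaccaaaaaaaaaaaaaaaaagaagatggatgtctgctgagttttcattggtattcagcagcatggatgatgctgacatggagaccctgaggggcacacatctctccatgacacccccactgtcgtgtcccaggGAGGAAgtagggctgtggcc
S100a9: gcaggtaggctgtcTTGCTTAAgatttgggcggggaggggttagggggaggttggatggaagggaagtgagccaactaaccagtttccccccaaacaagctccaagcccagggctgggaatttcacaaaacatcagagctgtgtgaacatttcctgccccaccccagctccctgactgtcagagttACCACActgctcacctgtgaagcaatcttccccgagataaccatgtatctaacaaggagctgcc
Retnlg: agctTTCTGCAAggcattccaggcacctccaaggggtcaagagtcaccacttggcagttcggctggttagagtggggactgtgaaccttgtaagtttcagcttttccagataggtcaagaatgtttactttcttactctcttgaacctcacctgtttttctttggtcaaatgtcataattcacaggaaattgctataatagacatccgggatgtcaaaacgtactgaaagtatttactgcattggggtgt
The capitals mark a C/EBP match in Ngp, Ltf and Retnlg, a C/EBP and a RUNX match in S100a9, and the Spi1 core in Ltf and Elane.

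Library totals were between 6214269 and 18855772 counts, lowest in the WT library of SAT on HFD. The targeted gene Tert was lower in the KO library of 3 pairs: it had 114 and 0 counts (WT, then KO) with HFD, 70 and 11 in SAT of chow-fed mice, and 24 and 7 in muscle. In VAT it was 3 counts in the library labelled WT and 9 in the library labelled KO, against the label, so directions between genotypes in VAT rest on labels that Tert did not bear out. Levels are given as CPM, counts divided by TMM-scaled library sizes, and 3 counts, the floor used for bounds, were 0.181 to 0.451 CPM. The sorted cells held EC transcripts in every library: the summed level of 12 EC markers was 396 to 706 CPM in SAT, 1857 to 2454 CPM in VAT and 2181 to 2623 CPM in muscle. In these bulk libraries, fewer cells of a type and less RNA per cell cannot be told apart.

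The granule genes were far higher in mG+ cells from muscle than from either AT. The 10 genes took 2.84% of all counts in the WT and 3.60% in the KO muscle library, against 0.00853% to 0.0756% in the other 6 libraries. Their summed level was 29982 and 33738 CPM in muscle (WT and KO), 795 and 757 CPM in VAT (labelled WT and KO), 338 and 83.3 CPM in SAT on chow, and 79.8 and 82.0 CPM in SAT on HFD. In muscle the sum was 13.7 and 12.9 times that of the 12 EC markers, and in no other library did it exceed 0.550 times. For all 10 genes, both muscle libraries lay above the other 6, as they did for 8.1% of the 16971 genes tested, whose mean count reached 10 or more. All 10 genes passed this filter, also over the 6 libraries outside muscle.

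The genes of calprotectin were among the most abundant. S100a9 was at 6579 and 8245 CPM in muscle (WT and KO), 138 and 110 CPM in VAT, 81.3 and 19.4 CPM in SAT on chow, and 23.3 and 14.0 CPM in SAT on HFD. S100a8 was at 3726 and 5316 CPM in muscle, 63.4 and 49.7 CPM in VAT, 54.5 and 11.3 CPM in SAT on chow, and 9.78 and 13.6 CPM in SAT on HFD. Both genes stood lowest in SAT on HFD by mean, although their SAT HFD libraries overlapped the range of SAT on chow. The ratio of S100a9 to S100a8 counts per length lay between 1.37 and 3.17 in the 8 libraries, both extremes falling in SAT on HFD.

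The azurophil gene Elane had 8486 and 8695 counts in muscle (514 and 630 CPM), 43 and 19 counts in SAT on chow (2.60 and 1.15 CPM), 10 and 0 counts in VAT (labelled WT and KO), and 0 counts in both SAT HFD libraries. The lower muscle library stood 198 times above the highest other library. Over the 2 libraries together, Elane was at least 12-fold higher in SAT on chow than in SAT on HFD, computed against 3 counts over the SAT HFD group.

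Among the specific granule genes, Ngp, Ltf and Camp had the widest gaps between muscle and AT. Ngp was at 7392 and 7605 CPM in muscle, 6.72 and 8.77 CPM in VAT, 46.5 and 8.02 CPM in SAT on chow, and 9.78 and 3.09 CPM in SAT on HFD. Ltf was at 5287 and 5264 CPM in muscle, 4.48 and 7.88 CPM in VAT, 29.2 and 9.16 CPM in SAT on chow, and 6.17 and 14.1 CPM in SAT on HFD. Camp was at 1627 and 1918 CPM in muscle, 1.57 and 3.54 CPM in VAT, 8.52 and 0.542 CPM in SAT on chow, and 4.82 and 4.43 CPM in SAT on HFD. The lower muscle library exceeded the highest other library 159-fold for Ngp, 180-fold for Ltf and 191-fold for Camp, and for all 3 that other library was WT SAT on chow. The other 5 AT libraries reached at most 9.78 CPM for Ngp, 14.1 CPM for Ltf and 4.82 CPM for Camp.

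Lcn2 was at 2606 and 2553 CPM in muscle, 17.7 and 9.80 CPM in VAT, 48.7 and 8.62 CPM in SAT on chow, and 6.92 and 2.61 CPM in SAT on HFD. Mmp8 was at 602 and 568 CPM in muscle, 11.8 and 7.81 CPM in VAT, 7.26 and 1.81 CPM in SAT on chow, and 0 and 1.27 CPM in SAT on HFD. The lower muscle library exceeded the highest other one 52.4-fold for Lcn2 and 48.3-fold for Mmp8.

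The late genes stood apart. Retnlg was at 718 and 717 CPM in muscle, 39.2 and 41.1 CPM in VAT, 11 and 3.56 CPM in SAT on chow, and 9.33 and 17.2 CPM in SAT on HFD, a gap of 17.5-fold from muscle to the highest other library. Mmp9 was at 931 and 920 CPM in muscle, 511 and 519 CPM in VAT, 48.0 and 19.8 CPM in SAT on chow, and 9.63 and 11.7 CPM in SAT on HFD. For Mmp9 the gap was 1.77-fold, and the highest other library was the VAT library labelled KO.

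**Figure D1:**
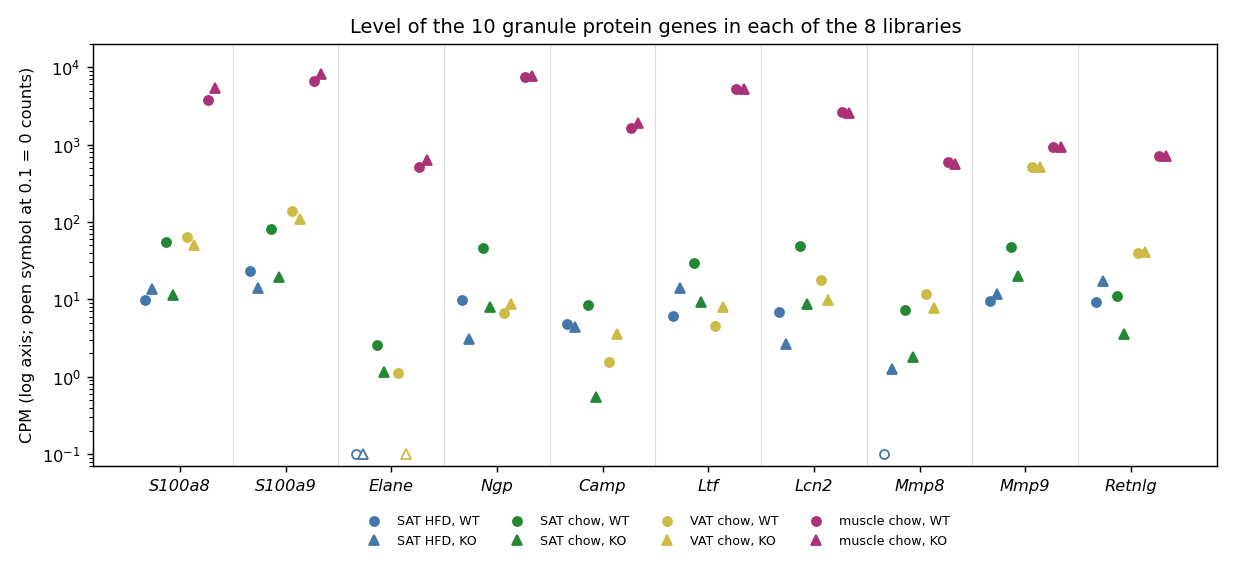
Level of each gene in CPM (log axis) in the 8 libraries, with circles for WT and triangles for KO, colours for tissue and diet, and open symbols for 0 counts. The muscle symbols stand highest for every gene, and for Mmp9 the VAT symbols at 511 and 519 CPM come close to the muscle symbols at 920 and 931 CPM.

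To set these tissue differences against the spread left in a fit, edgeR quasi-likelihood was used over all 8 libraries with tissue and diet and genotype as terms. The p-values were adjusted over all 16971 genes. With 1 WT and 1 KO library per tissue and diet, this spread is how far the pairs depart from a common KO to WT ratio. It is not a spread between replicates of 1 condition. Muscle was higher than SAT on chow for 10 of 10 genes, while 1.11% of all genes were higher. The log2 fold change was 8.81 for Camp (SE 1.22, adjusted p = 0.0231), 8.45 for Ngp (SE 0.95, adjusted p = 0.0108), 8.40 for Elane (SE 0.93, adjusted p = 0.0147) and 8.08 for Ltf (SE 0.86, adjusted p = 0.0103). S100a9 had 7.46 (SE 0.75) and S100a8 7.26 (SE 0.86). Mmp8 had 7.11, Lcn2 6.93, Retnlg 6.65 and Mmp9, the smallest, 4.82 (SE 0.50, adjusted p = 0.0098). Their median was 7.36, against a median of −0.09 over all genes tested. Leaving out the WT muscle library ended the calls of Camp (9.42, adjusted p = 0.0501) and Mmp8 (7.37, adjusted p = 0.0620), and leaving out the KO muscle library that of Elane (7.27, adjusted p = 0.0516), while 0.231% and 0.207% of all genes were higher in those fits.

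Against VAT, muscle was higher for 9 of 10 genes, while 0.884% of all genes were higher. Elane had the largest log2 fold change, 10.30 (SE 1.04, adjusted p = 0.0076), followed by Ngp with 9.87 (adjusted p = 0.0054), Ltf with 9.73 (SE 0.92) and Camp with 9.34 (SE 1.24). The size and rank of the Elane value rest on 10 and 0 counts in the VAT libraries labelled WT and KO. Lcn2 had 7.71, S100a8 6.37, S100a9 5.98, Mmp8 5.93 and Retnlg 4.16. Mmp9 did not pass, with 0.84 (SE 0.42, adjusted p = 0.493). The median was 7.04, against 0.02 over all genes. These calls rested on both VAT libraries: without the library labelled WT, and likewise without the library labelled KO, only Ngp, Ltf, Lcn2 and Elane, 4 of 10, passed, with all 10 fold changes still positive, and 0.0939% and 0.0592% of all genes were higher. Without the WT muscle library 8 passed, with Mmp8 lost (6.17, adjusted p = 0.0663), and without the KO muscle library 7, with Mmp8 (5.67, adjusted p = 0.0781) and Retnlg (4.03, adjusted p = 0.0670) lost, where 0.231% and 0.136% of all genes were higher. Mmp9 passed without the WT (0.85, adjusted p = 0.0443) or without the KO (0.85, adjusted p = 0.0479) SAT chow library, fits in which 3.25% and 3.19% of all genes were higher.

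Other granule genes were read in lists by granule class. For these lists and those that follow, 1.11% of all genes were higher in muscle than in SAT on chow and 0.884% than in VAT. Of 5 other azurophil genes, 4 were higher in muscle than in SAT on chow, and 4 were higher than in VAT. Mpo, myeloperoxidase, was at 1114 and 1528 CPM in muscle and at most 6.89 CPM elsewhere, with a log2 fold change over SAT on chow of 8.40 (SE 0.72, adjusted p = 0.0096). The serine proteases Prtn3 (8.43) and Ctsg (7.83) were also higher. Of 9 other specific granule genes, 9 were higher than in SAT on chow and 7 than in VAT. Olfm4, Fcnb and Wfdc21 likewise passed the filter only through muscle, with at most 15, 12 and 29 counts in any other library. Among the 9, Chil3, a chitinase-like protein, was at 1609 and 2290 CPM in muscle and at most 65.7 CPM elsewhere. Cd177, a neutrophil surface and granule glycoprotein, was at 963 and 950 CPM and at most 11.3 CPM elsewhere. Cybb, the large subunit of the phagocyte oxidase, was higher than in SAT on chow by 2.29 (adjusted p = 0.0238) but had 0.48 against VAT (adjusted p = 0.678).

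Genes of later stages were read the same way. Of 5 other gelatinase granule and late genes, 2 were higher in muscle than in SAT on chow and 1 than in VAT. Adam8, a membrane protease and 1 of the 2, was at 410 and 403 CPM in muscle, 261 and 276 CPM in VAT and 51.7 to 68.9 CPM in SAT. Padi4, which citrullinates histones in neutrophils, had 4.96 over SAT on chow and did not pass (adjusted p = 0.0978). Of 9 receptors and other markers of mature neutrophils, 8 were higher than in SAT on chow and 2 than in VAT. Hdc, histidine decarboxylase, rose over SAT on chow by 4.95 (adjusted p = 0.0323) and had 2.23 over VAT (adjusted p = 0.184), and Csf3r, the G-CSF receptor, had 3.52 (adjusted p = 0.0716) and 1.03 (adjusted p = 0.668). The summed level of the 5 azurophil genes was 0.829 and 1.18 times that of the 9 mature markers in muscle and 0.00784 to 0.138 times in the other libraries.

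Of 7 factors of granulocyte development, 1 was higher in muscle than in SAT on chow and 0 than in VAT. In VAT 5 of the 7 were higher than in SAT on chow, against 3.31% of all genes. Cebpb was at 529 and 420 CPM in muscle and 546 and 652 CPM in VAT, Runx1 at 152 and 111 CPM and at 305 and 244 CPM, and Spi1, which encodes PU.1, at 238 and 199 CPM and at 241 and 227 CPM. Cebpe, the C/EBP factor needed for specific granules, was chosen for mention with its values known. It was at 65.8 and 85.3 CPM in muscle and at most 3.58 CPM elsewhere, with a log2 fold change over SAT on chow of 5.95 (SE 1.16, adjusted p = 0.0585), which did not pass. For the lists of inhibitors and of receptors of these proteins few calls were made. Serpinb1a, an inhibitor of neutrophil serine proteases, was higher in muscle than in SAT on chow by 1.85 (adjusted p = 0.0415), the only 1 of the 3 inhibitors tested, and 0 of 4 receptor genes were higher. Against VAT, Serpinb1a was higher in muscle (1.85, adjusted p = 0.0333), whereas Timp2, the inhibitor of highest mean CPM, was lower (−2.08, adjusted p = 0.0258).

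Transcripts outside the granule lists differed between muscle and AT as well. Of 5 proliferation genes, 2 were higher in muscle than in SAT on chow and 4 than in VAT, with a summed level of 648 and 1028 CPM in muscle and 105 to 204 CPM elsewhere. Of 6 eosinophil and basophil markers 2, Prg2 and Mcpt8, were higher in both comparisons. The 6 summed to 187 and 199 CPM in muscle and at most 48.5 CPM elsewhere. Mcpt8 passed the filter only through muscle, with at most 11 counts in any other library. Ccr3 had −0.21 over SAT on chow and −3.07 over VAT, and Siglecf 2.44 and −0.85, none of which passed. The 5 erythroid genes summed to 678 CPM in the WT and 105 CPM in the KO muscle library and to 17.9 to 69.2 CPM elsewhere. Of these 5, 0 were higher in either comparison. The granule genes summed to 29982 and 33738 CPM in the same muscle libraries. The part of the cells behind these transcripts in the muscle levels was not tested.

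**Figure D2:**
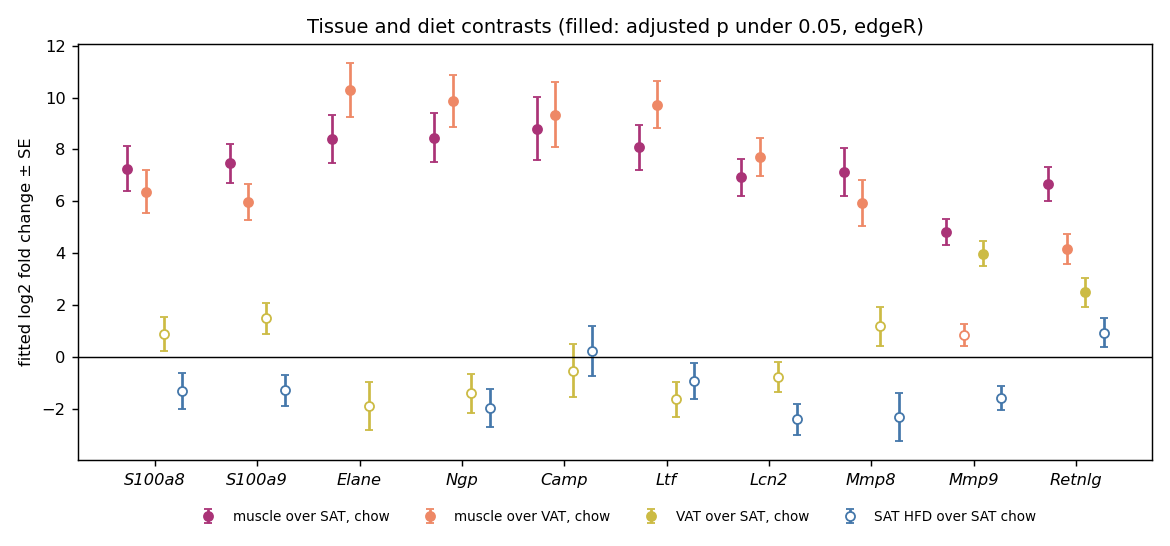
Fitted log2 fold change (± SE) of each gene in 4 contrasts of tissue and diet, with filled symbols for an adjusted p under 0.05. The muscle contrasts lie between 4.16 and 10.30 apart from Mmp9 over VAT at 0.84, and Mmp9 and Retnlg carry the filled symbols of VAT over SAT. Elane in SAT HFD over SAT chow is not drawn, since both SAT HFD libraries had 0 counts.

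Between the fat depots on chow the genes did not move together. Mmp9 was higher in VAT than in SAT by 3.98 on the log2 scale (SE 0.48, adjusted p = 0.0073) and Retnlg by 2.49 (SE 0.55, adjusted p = 0.0445), the only 2 of 10 that passed, while 3.31% of all genes were higher. Retnlg no longer passed without the VAT library labelled WT (2.66, adjusted p = 0.203), the VAT library labelled KO (2.43, adjusted p = 0.164) or the WT muscle library (2.51, adjusted p = 0.0503), and Mmp9 passed each time. S100a9 had 1.48 (adjusted p = 0.208), Mmp8 1.18 and S100a8 0.88. Elane had −1.89, Ltf −1.64 (adjusted p = 0.231), Ngp −1.41, Lcn2 −0.78 and Camp −0.54, none of which passed. For S100a9, Mmp8, Mmp9 and Retnlg both VAT libraries lay above all 4 SAT libraries, 4 of 10 genes against 22.3% of all genes.

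The SAT chow libraries differed between themselves, and the count of calls moved with them. Without the WT SAT chow library, S100a9 (2.61, adjusted p = 0.0254) and S100a8 (2.49, adjusted p = 0.0256) also passed, 4 of 10, while 3.04% of all genes were higher. In that fit Camp turned to 2.38 and Lcn2 to 0.35, and Ngp had −0.11 and Ltf −0.26. Without the KO SAT chow library 6 passed, with Mmp9 and Retnlg higher in VAT and Ltf (−2.56, adjusted p = 0.0108), Ngp (−2.39, adjusted p = 0.0349), Camp (−1.88, adjusted p = 0.0235) and Lcn2 (−1.55, adjusted p = 0.0422) lower, while 11.3% of all genes were higher and 9.24% lower.

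Mmp9 made up 66.3% of the mean summed CPM of the 10 genes in VAT and 2.91% in muscle. Macrophage transcripts stood beside it: 8 of 8 macrophage markers were higher in VAT than in SAT on chow, against 3.31% of all genes. In muscle 8 of 8 were lower than in VAT, against 1.05% of all genes. Between VAT and SAT on chow, 9 of 12 EC markers and 2 of 5 monocyte markers were also higher in VAT. In that comparison 4 of 4 B cell and 4 of 4 T cell markers were lower, against 1.74% of all genes. The macrophage markers summed to 9218 and 9092 CPM in VAT, 192 to 847 CPM in SAT, and 689 and 319 CPM in muscle. Of the mature neutrophil markers 4 of 9 were higher in VAT than in SAT on chow, among them Clec4e, a C-type lectin receptor also found on macrophages, by 4.03 (adjusted p = 0.0137). The part of macrophages, or of any other of these cells, in the VAT level of Mmp9 was not tested. Without Mmp9, the other 9 genes summed to 284 and 239 CPM in VAT, 290 and 63.5 CPM in SAT on chow and 70.1 and 70.3 CPM in SAT on HFD.

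By mean level per length over the 2 libraries, S100a9 ranked first in each tissue and diet, although in the KO library of SAT on HFD Retnlg stood above it (29.0 against 26.8 CPM per kb). S100a9 was at a mean of 14199 CPM per kb of gene length in muscle, 238 in VAT, 96.5 in SAT on chow and 35.8 in SAT on HFD. In muscle S100a8 (6515 CPM per kb), Ngp (6136), Camp (2339), Ltf (1529), Retnlg (1210), Lcn2 (983), Elane (582), Mmp9 (262) and Mmp8 (241) followed. S100a8 and Ngp, next to each other in that order, did not differ per length beyond their spread. The S100a8 libraries, at 5369 and 7661 CPM per kb, differed by more than that gap. In VAT the second place was held by Mmp9 (145 CPM per kb), and Ngp was at 6.34, Camp at 3.37, Ltf at 1.79 and Elane at 0.569. In SAT on HFD Retnlg was second (22.4 CPM per kb) and Elane last.

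The balance of early against late granule genes was read inside each library, as the counts of Elane, Ngp, Camp, Ltf and Lcn2 over these plus Mmp8, Mmp9 and Retnlg. Mmp8, a specific granule gene by protein, was set beside the later genes in this measure, and its place was varied. This early share does not depend on the scaling between libraries. It was 88.6% in the WT (95% exact binomial interval 88.5 to 88.7) and 89.1% in the KO muscle library (89.0 to 89.2). In VAT it was 5.32% (4.73 to 5.96) and 5.02% (4.55 to 5.51) in the libraries labelled WT and KO. In SAT on chow it was 67.2% (65.5 to 68.7) in WT and 52.2% (48.9 to 55.6) in KO, and in SAT on HFD 59.4% (53.7 to 64.9) in WT and 44.5% (40.8 to 48.3) in KO. The intervals cover counting error only, and with 2 libraries against 2 an exact permutation test cannot go below p = 0.333. Muscle stood highest and VAT lowest without overlap, whereas the SAT groups overlapped. With Mmp9 left out, a choice made after seeing the data, the share was 38.3% and 38.0% in VAT, 93.0% and 93.3% in muscle and 56.8% to 88.1% in SAT, the same order at a smaller distance. Counting Mmp8 as early, also chosen after seeing the data, gave 7.30% and 6.32% in VAT, 91.6% and 91.9% in muscle and 46.9% to 70.8% in SAT. The size of the share rests on the genes counted: with S100a8 and S100a9 as late it was 58.1% and 53.3% in muscle, 3.97% and 3.96% in VAT and 29.5% to 40.1% in SAT, without Lcn2 it was 2.41% and 3.43% in VAT, and per length it was 29.1% in the KO library of SAT on HFD. Muscle stood highest and VAT lowest under each of these choices.

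The count of Ngp over that of Retnlg, an early and a late gene with no Mmp9 in it, was 10.3 and 10.6 in muscle, 0.171 and 0.213 in VAT, 4.23 and 2.25 in SAT on chow (WT and KO) and 1.05 and 0.180 in SAT on HFD. In both SAT pairs the early share was lower in KO, by 14.8 percentage points on HFD and 14.9 on chow. In VAT it was lower by 0.304 points, a direction that turned without Lcn2 (1.02 points) and per length (0.319 points), and in muscle it was higher by 0.505 points. Over the 4 pairs the mean difference of KO minus WT was −7.38 points (SD 8.65, n = 4 pairs, exact two-sided sign-flip permutation p = 0.375), lower in 3 of 4 pairs, and 4 pairs cannot give a p below 0.13.

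**Figure D3:**
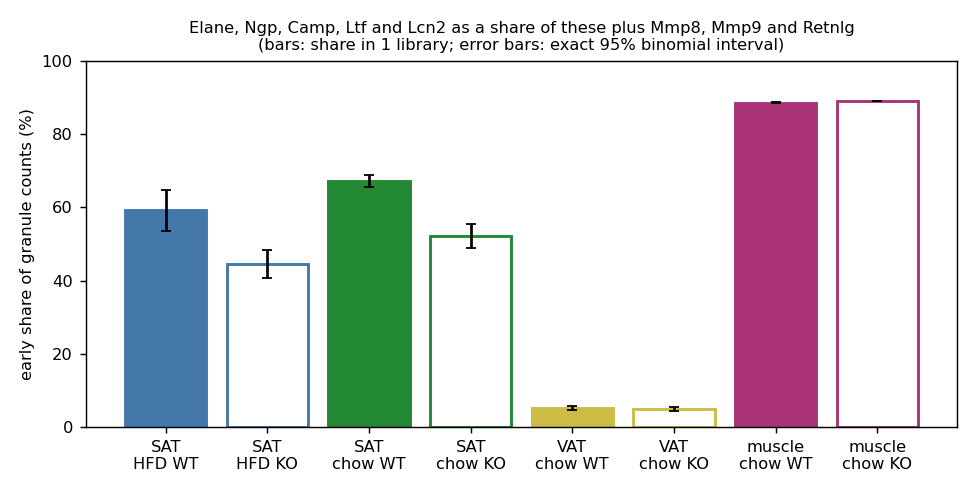
Early share of granule counts in percent in each library, with filled bars for WT, open bars for KO and exact 95% binomial intervals. Muscle bars stand at 88.6% and 89.1%, VAT bars at 5.32% and 5.02%, and the KO bar is the lower in both SAT pairs.

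HFD was compared with chow in SAT. No granule gene passed the edgeR test, and 0 of 16971 genes did (0%), while 1354 genes and 5 of the 10 had an unadjusted p under 0.05 and DESeq2 called 246 genes and 1 of the 10, Lcn2. The fitted log2 fold changes on HFD were −2.40 for Lcn2 (SE 0.60, adjusted p = 0.427), −2.33 for Mmp8, −1.98 for Ngp, −1.59 for Mmp9, −1.33 for S100a8, −1.30 for S100a9 and −0.93 for Ltf. Camp had 0.21 and Retnlg 0.93. The median over the 10 was −1.46, unchanged with Elane at its bound, against −0.24 over all genes. Both SAT HFD libraries lay below both SAT chow libraries for 4 of 10 genes (Lcn2, Mmp8, Mmp9 and Elane), against 22.7% of all genes. Without the KO SAT chow library 3 passed as lower on HFD: Lcn2 (−3.14, adjusted p = 0.0432), Mmp9 (−2.19, adjusted p = 0.0401) and S100a8 (−2.31, adjusted p = 0.0467), while 0.661% of all genes were lower and 1.17% higher. The total of the WT SAT HFD library was the lowest of the 8, and B cell markers (1514 and 856 CPM in SAT on chow, 864 and 761 CPM on HFD) and macrophage markers (847 and 430 CPM, 321 and 192 CPM) differed between the same libraries, whose part was not tested.

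Within pairs, KO was compared with WT by the log2 ratio of CPM with its 95% counting interval. With 1 library per genotype there is no replicate check, and a ratio describes the libraries of its pair. In SAT on chow all 10 genes were lower in KO, with intervals below 0. The interval lay beyond 2-fold for 9 of 10 genes, while 11.7% of the genes whose counts in the pair averaged 10 or more were beyond 2-fold lower and 19% higher. Camp had the largest difference, from 141 to 9 counts, a log2 ratio of −3.90 (−5.13 to −3.01). Ngp went from 769 to 133 counts (−2.53), Lcn2 from 805 to 143 (−2.49), S100a8 from 901 to 187 (−2.27) and S100a9 from 1345 to 322 (−2.07). Mmp8 had −1.99, Ltf −1.67, Retnlg −1.62, Mmp9 −1.28 and Elane −1.16 (−2.04 to −0.37), from 43 to 19 counts. The median was −2.03, against −0.0044 over all genes, and library totals in place of TMM moved every ratio of the pair by 0.23.

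Other transcripts moved in the same pair. From WT to KO, T cell markers went from 1367 to 540 CPM, B cell markers from 1514 to 856 CPM, macrophage markers from 847 to 430 CPM and monocyte markers from 794 to 363 CPM. Erythroid markers went from 69.2 to 17.9 CPM, 3.87-fold lower where the granule genes summed were 4.05-fold lower, eosinophil and basophil markers from 12.8 to 5.60 CPM, and the other azurophil genes from 11.5 to 3.8 CPM. The 4 stromal markers went from 498 to 2254 CPM, and EC markers from 614 to 706 CPM. The 9 mature neutrophil markers went both ways, with 5 higher and 4 lower in KO: Hdc went from 6.11 to 36.3 CPM and Csf3r from 42.9 to 21.7 CPM. Of the 9 other specific granule genes all 9 were lower. The part of these cells in the granule gene ratios was not tested.

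In SAT on HFD the genes went both ways. Of the 8 that averaged 10 or more counts there, 3 had intervals above 0, 3 below 0 and 2 across 0. Ltf went from 41 to 178 counts (1.18, interval 0.69 to 1.72), Retnlg from 62 to 217 (0.88) and S100a8 from 65 to 172 (0.48). Ngp went from 65 to 39 counts (−1.65, −2.28 to −1.07), Lcn2 from 46 to 33 (−1.39) and S100a9 from 155 to 177 (−0.73, after scaling to the deeper KO library). Only Ngp lay beyond 2-fold, 1 of 8 lower and 0 of 8 higher, against 11.1% of all genes lower and 12.7% higher. Ngp did not with library totals. Mmp8, with 0 and 16 counts, was at least 2.81-fold higher in KO, and Elane had 0 counts in both libraries.

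In VAT 0 of 9 genes lay beyond 2-fold, against 2.4% of genes higher and 2.09% lower. Camp went from 14 to 48 counts between the libraries labelled WT and KO (1.15, interval 0.29 to 2.15) and Ltf from 40 to 107 (0.81), whereas S100a8 (−0.35), S100a9 (−0.33), Lcn2 (−0.85) and Mmp8 (−0.59) had intervals below 0. Mmp9 was 4563 and 7042 counts (0.02, −0.03 to 0.08). Elane, with 10 and 0 counts, was at least 5.07-fold lower in the library labelled KO. In muscle, where counts were highest, 0 of 10 genes lay beyond 2-fold, against 2.75% of genes higher and 2.05% lower, and the ratios ran from −0.08 for Mmp8 to 0.51 for S100a8 (0.50 to 0.53). S100a9 had 0.33, Elane 0.29, Camp 0.24 and Ngp 0.04, all with intervals above 0. Mmp8 and Lcn2 (−0.03) had intervals below 0, and both turned above 0 with library totals, which moved every ratio of the pair by 0.17.

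**Figure D4:**
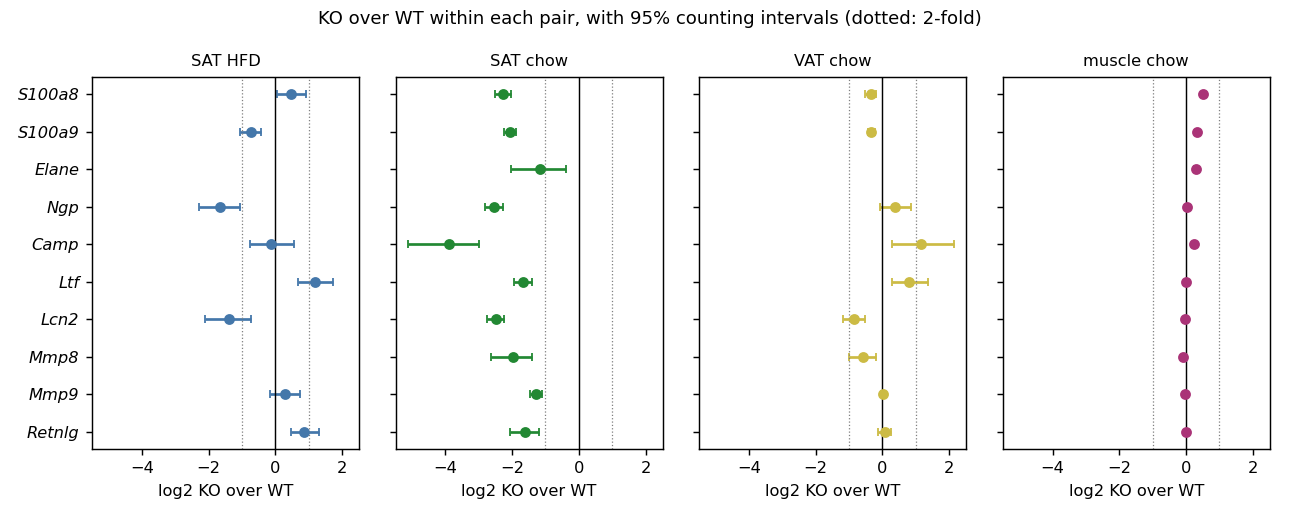
Log2 ratio of KO to WT for each gene within the 4 pairs, with 95% counting intervals and dotted lines at 2-fold, for genes averaging 10 or more counts in the pair. All 10 points lie below 0 in SAT on chow, from −3.90 to −1.16, while those of muscle lie between −0.08 and 0.51.

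Across the 4 pairs, with tissue and diet as the block, no granule gene passed the edgeR test of genotype, and 1 of 16971 genes did (0.00589%). The unadjusted p was under 0.05 for 279 genes and for 1 of the 10, Lcn2, with a log2 fold change of −1.17 (SE 0.42, unadjusted p = 0.0237, adjusted p = 0.9999), which was lower in KO in 4 of 4 pairs, although its muscle ratio of −0.03 turned to 0.0094 with RLE factors. DESeq2 called 19 genes and 0 of the 10. The other values ran from −0.92 for Ngp (SE 0.53) to 0.07 for Ltf (SE 0.48), with a median of −0.44 over the 10 genes against 0.02 over all. Without SAT on chow 5 of the 10 were above 0, S100a8 with 0.21, Camp 0.35, Ltf 0.59, Retnlg 0.28 and Mmp9 0.09, and 5 below, Lcn2 with −0.63, Ngp −0.29, S100a9 −0.21, Elane −0.15 and Mmp8 −0.05.

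**Figure D5:**
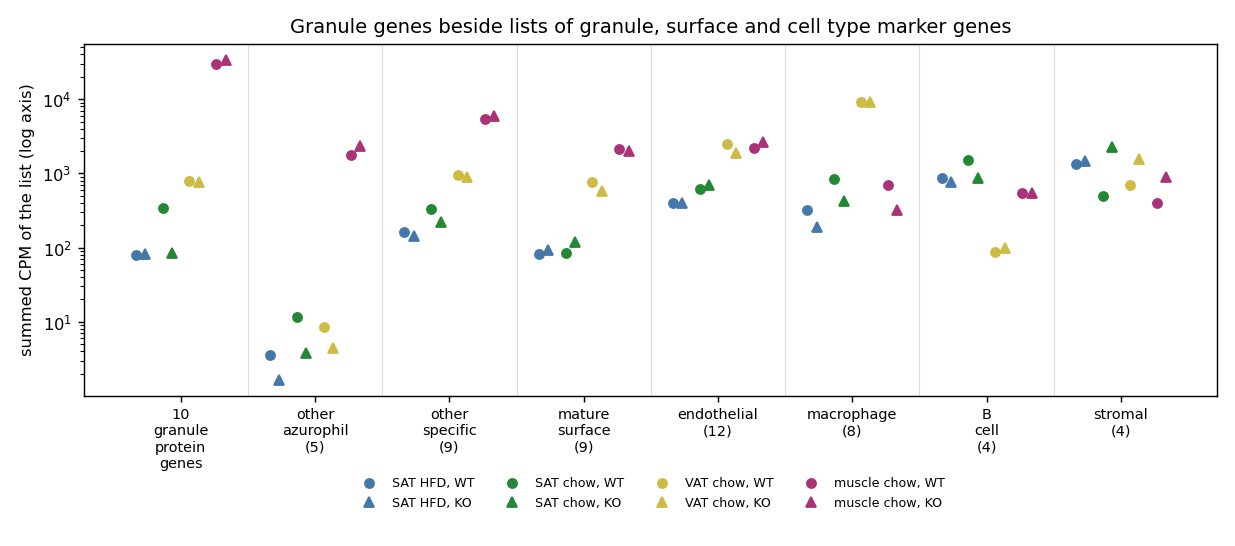
Summed CPM (log axis) of the 10 granule protein genes beside lists of other granule, surface and cell type marker genes in the 8 libraries, with circles for WT and triangles for KO. The granule genes reach 29982 and 33738 CPM in muscle, macrophage markers reach 9218 and 9092 CPM in VAT, and EC markers stay between 396 and 2623 CPM.

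The genes whose pattern was most like that of the set were sought over the 8 libraries among 10563 genes averaging 100 counts or more, by Pearson correlation of log2 CPM with the mean standardized profile of the 10. The 10 nearest were Rdh12 (r = 0.994), Zmpste24 (0.989), Serpinb1a (0.989), Ncaph (0.987), Pglyrp1 (0.987), Mmp25 (0.983), Cpne3 (0.981), Prdx5 (0.981), Cd9 (0.981) and 4930438A08Rik (0.979). Pglyrp1, a peptidoglycan recognition protein of neutrophil granules, was at 329 and 358 CPM in muscle and 9.42 to 44.9 CPM elsewhere. Mmp25, a membrane-type protease of leukocytes, was at 109 and 101 CPM in muscle and 14.0 to 32.5 CPM elsewhere. The 8 points share 4 tissues and diets, so these values are a description. Among the 10 genes themselves, S100a8 was nearest to the mean profile (r = 0.999) and Mmp9 the farthest (r = 0.800).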

How the data were processed

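The authors deposited whole-number read counts per Ensembl gene, not normalized. The submitters' processing notes name HISAT2 2.0.5 and GRCm38/mm10. The counting program and use of strand are not given in the sources used here. The labels name an RNeasy kit and a SMARTER library kit, while the methods give Trizol. Gene lengths are those of the deposited table.

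Counts of the 8 libraries were scaled by TMM (edgeR 4.0.16) and fitted with edgeR (quasi-likelihood, robust) on tissue and diet plus genotype, over genes averaging 10 or more counts, with Benjamini-Hochberg adjustment at 0.05. SEs were derived from the F statistic. Ratios within pairs used a prior count of 0.5, with exact conditional binomial intervals (95%, counting error only). Folds against 0 counts used 3 counts as the floor. The spread between tissues comes from the WT and KO library of each, which may be technical in part. Promoters were searched in Python 3.11.15. DESeq2 1.42.0, other scalings, filters and prior counts and leaving out each library or pair were alternatives. The fits and intervals were tested on simulated data. With a simulated dispersion (spread between libraries) of 0.1, the fit recovered 93% of 4-fold genotype changes and 62% of 4-fold changes of muscle over SAT on chow. At a dispersion of 0.4 it recovered 4.5% and 0% of 4-fold changes, and 92.5% and 43.5% of 16-fold changes. A gene that did not pass may therefore still differ.

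All 10 genes are named. From each other list the 2 or 3 genes of highest mean CPM are examples, though not all are printed, and the nearest genes by correlation are the top 10. The members and lists were chosen with earlier results of these data known. All 112 listed genes were found. Stefins (Stfa1, Stfa2 and Stfa3), near-identical copies, were below the filter and are not reported.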

Additional observations from a re-analysis of the deposited data

Results flagged for a closer look

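Among pairs in which a gene averaged 10 or more counts, the log2 ratio of KO to WT lay above 0 in at least 1 pair and below 0 in another by counting intervals for 7 genes, and the lowest of these pairs was SAT on chow for all 7. Pairs with fewer counts were left out: Elane in VAT (10 and 0 counts, at least 5.07-fold lower) and Mmp8 in SAT on HFD (0 and 16 counts, at least 2.81-fold higher), with which Elane would be lowest in VAT and Mmp8 would be an added gene. The differences between pairs were not tested, since each pair has 1 library per genotype. S100a8 ranged from −2.27 in SAT on chow to 0.51 in muscle, S100a9 from −2.07 to 0.33 in muscle and Elane from −1.16 to 0.29 in muscle. Ngp ranged from −2.53 in SAT on chow to 0.38 in VAT, where the interval crossed 0 (in muscle, with 0.04, it lay above 0), and Camp from −3.90 to 1.15 in VAT. Ltf ranged from −1.67 in SAT on chow to 1.18 in SAT on HFD, and Retnlg from −1.62 to 0.88 in SAT on HFD.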

How the results depend on the processing

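The muscle calls kept their side of the threshold with RLE factors, library totals, both other filters, DESeq2, a prior count of 5 and no genotype term. They held 10 granule genes over SAT on chow and 9 over VAT, while at most 4.69% and 3.39% of all genes were higher. Leaving out 1 library changed the calls, as given above, while all 10 fold changes stayed positive in both comparisons. When a library was left out, the lone library of its tissue was assumed to vary like the others, and the fit had fewer residual degrees of freedom. Calls over all genes fell in some of these fits and rose in others, and the cause was not tested. No paired analysis by replicate number was possible because each group holds 1 library. The pairing is by tissue and diet.

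Counts of granule genes moved elsewhere. SAT HFD over SAT chow had 5 with all genes that had a count tested, all lower on HFD, against 0.911% of all genes lower. DESeq2 had 1, Lcn2, also lower, against 1.32% of all genes. VAT over SAT on chow had 5 with all genes, 3 by DESeq2, and 1 to 6 leaving out 1 library. These counts for VAT hold both directions. With all genes, S100a9 (1.48), Mmp9 and Retnlg were higher in VAT, whereas Ltf (−1.64) and Elane (−1.90) were lower. By DESeq2 the added gene, S100a9 (1.63), was higher. Without the KO SAT chow library, Ltf (−2.56), Ngp (−2.39), Camp (−1.88) and Lcn2 (−1.55) were lower in VAT, and Mmp9 and Retnlg higher. In SAT on HFD, Ngp was not beyond 2-fold lower with library totals, leaving 0 genes.

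Counts over all genes moved more. With all 29627 genes that had a count tested, genotype had 41, SAT HFD over SAT chow 289 and VAT over SAT on chow 2116. Muscle over SAT on chow had 971 and muscle over VAT 1166. DESeq2, over 16971 genes, gave 19, 246, 2289, 1063 and 1256 in the same order. The genotype count was 0 without the block. Without a genotype term muscle over SAT on chow had 339 and muscle over VAT 542. Leaving out 1 pair gave 0 to 2 for genotype. Leaving out 1 library gave 0 to 308 for SAT HFD over SAT chow, 93 to 3449 for VAT over SAT on chow, 37 to 1761 for muscle over SAT on chow and 41 to 1207 for muscle over VAT.

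Signs turned for genes that did not pass, and the cause was not tested. For genotype without the block S100a8 had 0.48, S100a9 0.30, Ngp 0.032, Camp 0.23, Ltf −0.0085, Retnlg 0.0023 and Elane 0.28, and by DESeq2 Mmp8 had 0.012. Leaving out 1 pair gave S100a8 −0.72 to 0.21, Camp −0.97 to 0.35, Mmp9 −0.42 to 0.086 and Retnlg −0.48 to 0.28, each highest without SAT on chow, and Ltf −0.30 to 0.59, with −0.16 without VAT. For SAT HFD over SAT chow leaving out 1 library gave S100a8 −2.31 to 0.22, Ltf −1.86 to 0.46 and Camp −1.06 to 3.22, lowest without the KO and highest without the WT SAT chow library, and Camp −0.019 without the KO SAT HFD library. For VAT over SAT on chow, the same pair of libraries gave Camp −1.88 to 2.38, Lcn2 −1.55 to 0.35 and S100a8 −0.031 to 2.49, and Camp had 0.50 without the VAT library labelled WT. Within muscle Lcn2 had 0.0094 with RLE factors and 0.14 with library totals, and Mmp8 0.086 with library totals.

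The mean difference in early share stayed below 0: −5.67 points without Lcn2 (p = 0.5, lower in 2 of 4 pairs), −4.30 with S100a8 and S100a9 counted as late (p = 0.13, lower in 4 of 4 pairs), −8.92 per length (p = 0.5, lower in 2 of 4) and, chosen after seeing the data, −5.59 without Mmp9 (p = 0.375) and −7.07 with Mmp8 as early (p = 0.25), each lower in 3 of 4, all by exact sign-flip permutation. Depth limits Elane outside muscle and Mmp8 in SAT on HFD.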
